A study of Rattus norvegicus with 18 samples.

Results

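The genes of cytosolic fatty acid synthesis measured here were 8 of the 55335 gene identifiers in a kidney RNA-seq count table, taken as a named set and not by a threshold on their values: the transcription factor gene Srebf1, and the enzyme genes Acly, Me1, Acaca, Fasn, Elovl6, Scd1 and Scd2. The set was chosen with earlier results of these data known. All 8 were found in the table and all 8 passed the filter on low counts. Polyadenylated RNA of kidney was sequenced in 18 libraries, 6 in each of 3 groups, with 1 library per animal according to the series description. Treated animals (Treat) carried the diabetic nephropathy model and were given TSK orally for 4 weeks, at 500 mg/kg each day. TSK is named in the labels only by this abbreviation. Animals of the model group (DN) were made diabetic with a high-fat diet and an injection of STZ, a toxin of the insulin-producing beta cells. Control animals (Ctrl) ate ordinary feed and were given solvent by gavage. Treat and DN animals thus share the diet and the STZ. The sources used here do not give strain, age or sex, or whether DN animals were also gavaged. The labels describe the animals as Rattus norvegicus, while every gene identifier is a mouse Ensembl identifier, so that either the animals were mice or rat reads were counted against mouse genes.

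Cells make fatty acids from citrate exported by mitochondria. ATP citrate lyase splits the citrate to acetyl-CoA, acetyl-CoA carboxylase turns this into malonyl-CoA in the committed step, and fatty acid synthase builds palmitate from both, using NADPH that malic enzyme helps to supply. Elongases and stearoyl-CoA desaturases then lengthen the chain and put in a double bond. SREBP-1, the product of Srebf1, is the transcription factor best known for turning these genes on, and in liver its SREBP-1c form is raised by insulin. In kidney, where tubule cells burn fatty acids as their main fuel, the pathway has been studied for its part in lipid storage.

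Promoter windows of the labelled species are shown for 4 of these genes, because SREBP-1 acts at such sites together with the factors NF-Y and Sp1 and because the genes were lower together in the comparisons below. The sequences are from RefSeq (rat build GRCr8) and run 250 bases up to a transcript start, 5′ to 3′ on the gene's strand. This start need not be the outermost one. The windows of Acly, Scd and the downstream Srebf1 start lie inside the annotated genes. On the minus strand, Acly begins at base 85964605 of its chromosome and Scd at base 253232101, and the sequence before these positions was not searched. All 8 members matched a rat gene, Scd1 through the older name of rat Scd, and 5 of the 8 had a promoter in the table. Capitals mark CCAAT (the NF-Y box), GGGCGG (the Sp1 box) and TCACCC (the core of a sterol regulatory element), each searched on both strands.
Srebf1, downstream start (chr10:45519011-45519260, minus strand): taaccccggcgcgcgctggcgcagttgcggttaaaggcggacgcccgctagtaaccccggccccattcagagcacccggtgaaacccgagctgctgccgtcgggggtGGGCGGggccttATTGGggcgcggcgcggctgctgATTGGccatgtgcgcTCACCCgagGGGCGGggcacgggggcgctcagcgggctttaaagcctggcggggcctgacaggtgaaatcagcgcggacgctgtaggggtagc
Acly (chr10:85963632-85963881, minus strand): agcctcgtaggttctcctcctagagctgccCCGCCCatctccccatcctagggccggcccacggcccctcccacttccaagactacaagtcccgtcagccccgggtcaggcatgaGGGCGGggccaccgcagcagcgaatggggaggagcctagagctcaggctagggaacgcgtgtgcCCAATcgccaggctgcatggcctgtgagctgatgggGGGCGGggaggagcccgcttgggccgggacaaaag
Scd2 (chr1:253118127-253118376, plus strand): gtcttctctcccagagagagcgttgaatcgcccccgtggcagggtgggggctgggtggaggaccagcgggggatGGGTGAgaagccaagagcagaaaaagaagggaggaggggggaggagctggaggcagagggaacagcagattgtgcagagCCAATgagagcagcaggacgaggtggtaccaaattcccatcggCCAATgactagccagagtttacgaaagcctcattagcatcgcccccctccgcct
Scd, the rat counterpart of Scd1 (chr1:253231732-253231981, minus strand): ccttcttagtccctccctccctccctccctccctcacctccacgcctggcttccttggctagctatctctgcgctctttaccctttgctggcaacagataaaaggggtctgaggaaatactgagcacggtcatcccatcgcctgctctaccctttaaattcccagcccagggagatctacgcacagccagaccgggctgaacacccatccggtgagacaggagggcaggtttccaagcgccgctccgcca
The upstream Srebf1 start, not shown, held 1 match to CCAAT and 2 to GGGCGG. The downstream Srebf1 start held 2 matches to CCAAT, 2 to GGGCGG and 1 to TCACCC, the last between the second CCAAT and the second GGGCGG. Acly held 1 match to CCAAT and 3 to GGGCGG. Scd2 held 2 matches to CCAAT and 1 to TCACCC. The Scd window, which lies inside the annotated gene, held none of the 3 motifs. This says nothing of the sequence before the gene, which was not searched. Me1 held 5 matches to GGGCGG and none to the other two. No matches overlapped. Of 33469 rat windows of this length, 34% held CCAAT, 30.5% GGGCGG and 12.7% TCACCC. The E-box CACGTG (5.59% of windows) was in none of the windows of these genes. A match describes letters in the window and nothing more.

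Total counts ranged from 22040987 to 28135824 in Treat, from 25505257 to 35275498 in DN and from 26312358 to 34140706 in Ctrl. The members had at least 106 counts in each library. Levels are given as CPM, the count scaled to the TMM-adjusted library total, and are not corrected for gene length, so that levels of different genes are not compared. A pair of control libraries stood apart. In Ctrl 4, the identifier ENSMUSG00000086503 had 23 counts, while the other controls held 1404.6 CPM or more of it and every DN and treated library held at most 1.5 CPM. For 6 identifiers the other 5 controls stood at least 10-fold apart from Ctrl 4, DN and Treat together, and none of the 8 members was among them. Only Ctrl 4 keeps this division of the animals from coinciding with the contrast of the controls with the other groups, so that across the other controls the model and the division cannot be told apart. Ctrl 5 held 5999.8 CPM of ENSMUSG00000029368, against 16.2 to 70.4 CPM in the other controls. The identifiers come without names, so that markers of kidney cells and of fat or liver cells that a sample could hold were not analysed here, and the tissue label was not checked against them.

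DN kidneys were set against Ctrl kidneys to see how the model animals differed from the controls. Most of the pathway was strongly lower in DN. Fasn was 19.1-fold lower, Scd1 14.5-fold lower and Acaca 9.74-fold lower, and Elovl6, Srebf1, Scd2 and Acly were 2.18- to 3.66-fold lower. Me1 was not called. Of the 8 genes, 7 were called lower and 0 higher (edgeR quasi-likelihood test, Benjamini-Hochberg adjusted p under 0.05 over all 19233 genes tested), whereas 15.3% of all genes tested were called lower and 16.9% higher. For the same 7 genes, all 6 DN libraries lay below all 6 control libraries, as they did for 7.89% of all genes. With Ctrl 4 as the only control reference (a covariate taking up the other 5 controls), 6 of the 8 genes were called lower (the same 7 less Acly), whereas 2.78% of all genes were. The median log2 fold change was -1.66 over the 8 genes and 0.01 over all genes. In whole kidney, fewer cells of a type and less RNA per cell cannot be told apart.

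**Figure D1:**
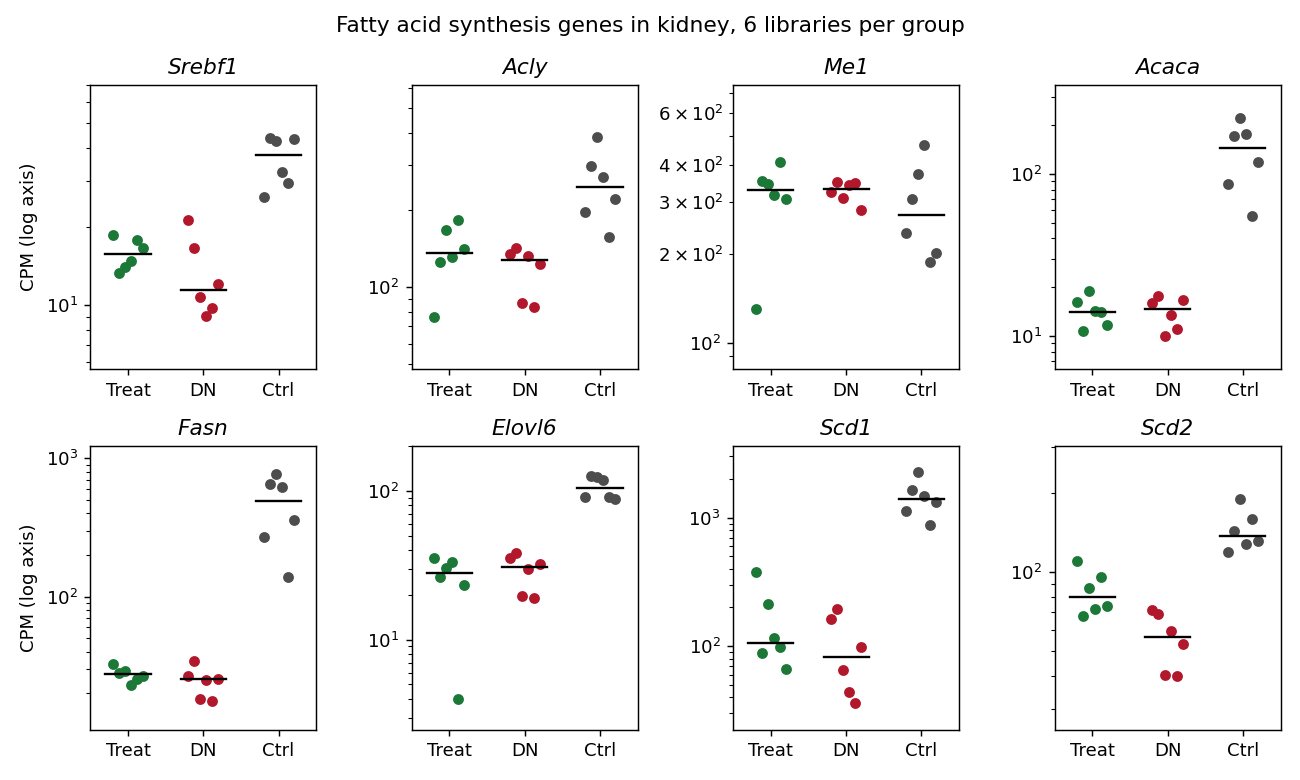
Level of each gene in each library (points, CPM on a log axis) in Treat, DN and Ctrl kidneys, with the group median as a line. The controls lie above all DN libraries for every gene but Me1; Treat and DN overlap for all 8 genes.

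Srebf1 (ENSMUSG00000020538), the gene of the transcription factor SREBP-1, had 9.06 to 21.2 CPM in DN (median 11.4), against 25.9 to 43.8 CPM in Ctrl (median 37.6). It fell by 1.46 on the log2 scale (SE 0.19, adjusted p = 2.24e-05, edgeR). DN 1 and DN 2 were nearest to the controls, yet no DN library reached the lowest control. The table gives 1 count per gene, so the SREBP-1a and SREBP-1c transcripts, which start at different promoters, are not separated.

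Of the genes that supply substrate and reducing power, one passed the test. Acly (ENSMUSG00000020917), ATP citrate lyase, had 83.1 to 141.6 CPM in DN (median 127.7), against 156.4 to 386.5 CPM in Ctrl (median 245.5). It fell by 1.12 (log2, SE 0.22, adjusted p = 0.000839, edgeR), the smallest of the 7 falls, and was not called with Ctrl 4 as the only control reference (adjusted p = 0.0724). The highest DN library, DN 2, was close to the lowest control, Ctrl 5. Me1 (ENSMUSG00000032418), the cytosolic malic enzyme, had 280.6 to 348.5 CPM in DN (median 331.3), against 186.9 to 464.9 CPM in Ctrl (median 270.3). The DN libraries lay within the range of the controls, above their median in 6 of 6 libraries. The log2 difference was 0.14 with a 95% interval from -0.34 to 0.63 (adjusted p = 0.674, edgeR). In this fit a fall of the size seen for Acly lies outside the interval. With Ctrl 4 as the only control reference the log2 difference of Me1 was -0.52, so that its sign depends on which controls are used.

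Both enzymes that build the chain were among the largest falls of the whole table. Acaca (ENSMUSG00000020532), acetyl-CoA carboxylase 1, had 10.01 to 17.6 CPM in DN (median 14.7), against 54.7 to 221.1 CPM in Ctrl (median 144.2). It fell by 3.28 (log2, SE 0.28, adjusted p = 1.84e-07, edgeR), the 43rd largest fall of 19233 genes. The DN libraries were within 1.76-fold of each other, while the controls spread over 4.04-fold. Fasn (ENSMUSG00000025153), fatty acid synthase, had 17.4 to 34.3 CPM in DN (median 25.1), against 138.1 to 770.0 CPM in Ctrl (median 488.1). It fell by 4.25 (log2, SE 0.34, adjusted p = 8.59e-08, edgeR), the 16th largest fall. Its spread was 1.97-fold in DN and 5.58-fold in Ctrl, where Ctrl 5 and Ctrl 1 were the lowest libraries.

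The genes that finish the chain also fell, to different extents. Elovl6 (ENSMUSG00000041220), the elongase that takes palmitate to stearate, had 19.2 to 38.1 CPM in DN (median 30.9), against 88.6 to 125.6 CPM in Ctrl (median 104.3). It fell by 1.87 (log2, SE 0.33, adjusted p = 0.000329, edgeR), with the groups more than 2-fold apart at their nearest libraries. Scd1 (ENSMUSG00000037071), a stearoyl-CoA desaturase, had 35.9 to 196.0 CPM in DN (median 81.7), against 871.2 to 2268 CPM in Ctrl (median 1400). It fell by 3.86 (log2, SE 0.49, adjusted p = 1.43e-05, edgeR), the 26th largest fall. Scd1 was also the most variable of the 8 genes among DN kidneys, with a 5.47-fold spread. Scd2 (ENSMUSG00000025203), its paralog, had 40.1 to 71.7 CPM in DN (median 56.3), against 119.1 to 189.0 CPM in Ctrl (median 137.1). It fell by 1.38 (log2, SE 0.16, adjusted p = 6.95e-06, edgeR). Reads of Scd1 and Scd2 can be alike, and how such reads were assigned is not given, so that the split between these paralogs is uncertain.

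**Figure D2:**
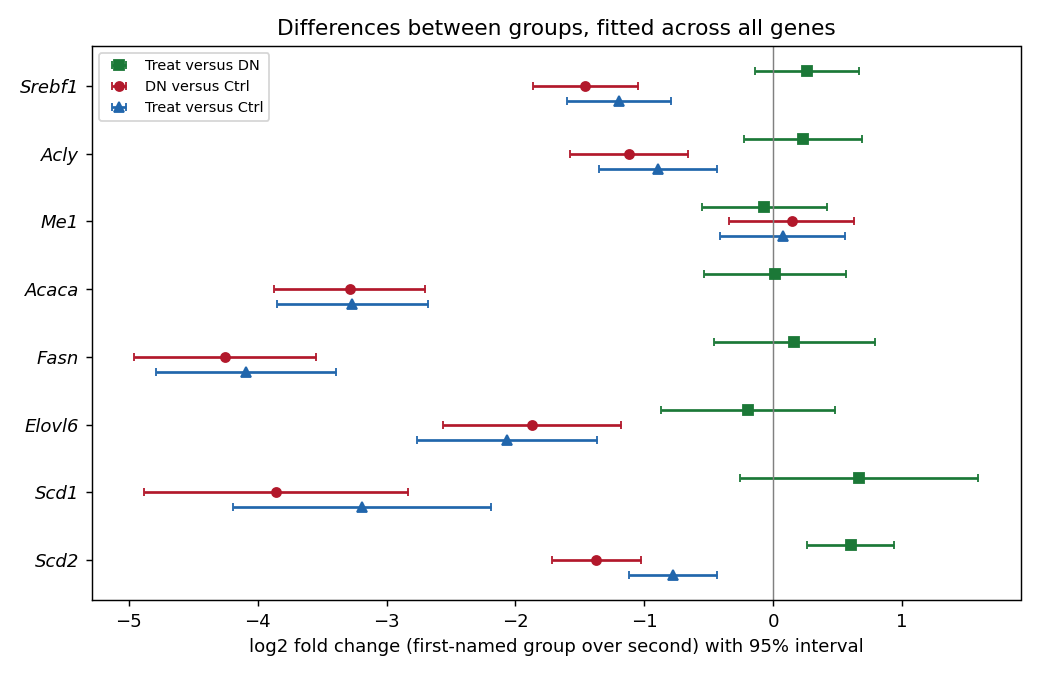
Log2 fold change of each gene in the 3 comparisons (first-named group over second) with 95% intervals from the fit across all genes. For DN versus Ctrl, 7 genes lie between -4.25 and -1.12 and Me1 at 0.14; for Treat versus DN, the intervals of all genes but Scd2 include 0.

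Ctrl 4, which sided with DN and Treat for the 6 identifiers above, lay above every DN and treated library for these genes. It had 619.1 CPM of Fasn and 1480.5 CPM of Scd1, within the range of the other controls. For Me1 it was the highest control, with 464.9 CPM, against 186.9 to 371.8 CPM in the other controls. As 1 library it gives no spread, and whether the division bears on these genes was not tested. In the fit whose covariate takes up the other 5 controls, DN was in effect compared with the single library Ctrl 4, which was assumed to vary like the other libraries. The log2 fold change there was -4.66 for Fasn (adjusted p = 3.11e-05, edgeR), -3.64 for Acaca, -3.88 for Scd1 and -1.20 for Acly, and 986 genes were called in all. Ctrl 5 was the lowest control for 5 of the 8 genes (Fasn, Acaca, Acly, Scd1 and Me1). Without Ctrl 5 the log2 fold change of Fasn was -4.45 and the 7 genes were called as before.

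The sizes of the falls can be set side by side within libraries by dividing the CPM of each gene by that of Srebf1. This divisor was chosen with the values in view, and the ratios are a description without a test. The log2 ratio of Fasn to Srebf1 was 0.92 ± 0.38 in DN and 3.49 ± 0.78 in Ctrl (SD, n = 6 each). That of Scd1 was 2.72 ± 0.59 in DN and 5.29 ± 0.34 in Ctrl, and that of Acaca 0.14 ± 0.37 in DN and 1.81 ± 0.59 in Ctrl. For these genes all 6 DN libraries lay below all controls. The ratio of Me1 was 4.68 ± 0.49 in DN and 2.97 ± 0.55 in Ctrl, with all DN libraries above all controls. For Acly, Elovl6 and Scd2 the ratios of DN and Ctrl overlapped, with differences of 0.40, -0.41 and 0.10. Between Treat and DN the ratios of all 7 genes overlapped, with differences from -0.73 (Elovl6) to 0.35 (Scd1). The counts of Scd1 were 0.90 to 3.39 times those of Scd2 in Treat, 0.75 to 2.83 times in DN and 5.46 to 12 times in Ctrl. The counts of Fasn were 1.52 to 2.64 times those of Acaca in Treat (median 1.9) and 1.51 to 1.95 times in DN (median 1.75). In Ctrl they were 2.53 to 3.81 times those of Acaca (median 3.3). Treat overlapped with Ctrl in this ratio only through Treat 2 and Ctrl 5, and DN did not overlap with Ctrl. Both count ratios are without correction for length.

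**Figure D3:**
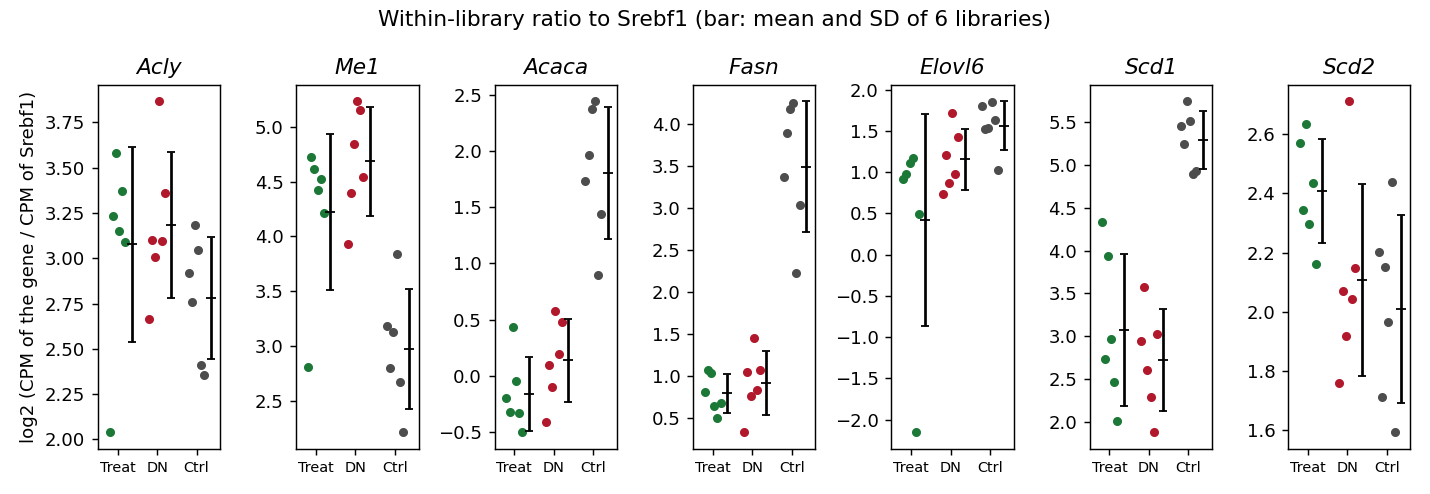
Log2 ratio of the CPM of each gene to that of Srebf1 within each library (points) in Treat, DN and Ctrl, with the mean and SD of 6 libraries as a bar. DN lies below all controls for Acaca, Fasn and Scd1 and above all controls for Me1, and overlaps them for Acly, Elovl6 and Scd2.

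Treat kidneys were set against DN kidneys to see whether TSK altered the model. None of the 8 genes was called by edgeR, which called 1.39% of all genes in either direction (268 genes, and 97 to 446 when any 1 library was left out, the fewest without DN 4 and the most without Treat 1). At an unadjusted p under 0.05 there was 1 gene, Scd2, against 16.4% of all genes. DESeq2 called 1 of the 8, again Scd2, and 4.44% of all genes, and limma voom called 0 of the 8 and 3.83% of all genes. The log2 fold change was above 0 for 6 of the 8 genes, with a median of 0.20, against -0.01 over all genes. For none of the 8 did the groups stand fully apart, as they did for 1.8% of all genes.

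Scd2 came nearest to a difference. It had 67.6 to 110.4 CPM in Treat (median 80.3), against 40.1 to 71.7 CPM in DN (median 56.3), and 5 of 6 treated libraries lay above the highest DN library. The log2 fold change was 0.60 (SE 0.16, 95% interval 0.26 to 0.94, adjusted p = 0.0697, edgeR). DESeq2 called it at 0.61 (adjusted p = 0.0118), and so did edgeR when libraries were scaled by their totals alone (0.74, adjusted p = 0.0287), which moves the median of all genes up by 0.13. Over all alternatives its adjusted p ranged from 0.0118 to 0.15.

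For Scd1 the treated libraries had 66.7 to 374.4 CPM (median 106.6), against 35.9 to 196.0 CPM in DN (median 81.7). Treat 1 and Treat 3 lay above every DN library and the other 4 within the DN range. The log2 fold change was 0.67 (95% interval -0.26 to 1.59, adjusted p = 0.480, edgeR), and without Treat 1 it was 0.21. Srebf1 had 13.3 to 18.6 CPM in Treat (median 15.6), against 9.06 to 21.2 CPM in DN (median 11.4). All 6 treated libraries were above the DN median, and the log2 fold change was 0.26 (95% interval -0.14 to 0.66, adjusted p = 0.533).

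For Fasn and Acaca, deeply lower in DN, no difference between Treat and DN was detected. Fasn had 23.0 to 32.7 CPM in Treat (median 27.4), against 17.4 to 34.3 CPM in DN (median 25.1), with a log2 fold change of 0.16 (95% interval -0.46 to 0.79, adjusted p = 0.836). Acaca had 10.7 to 18.9 CPM in Treat (median 14.1), against 10.01 to 17.6 CPM in DN (median 14.7), with a log2 fold change of 0.02 (95% interval -0.53 to 0.57, adjusted p = 0.984). The upper ends of these intervals are 1.73-fold for Fasn and 1.48-fold for Acaca, far below the 19.1- and 9.74-fold differences between DN and Ctrl. Acly had 76.4 to 183.3 CPM in Treat (median 135.6), against 83.1 to 141.6 CPM in DN (median 127.7; log2 fold change 0.23, 95% interval -0.22 to 0.69, adjusted p = 0.635).

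For Elovl6 and Me1, 1 treated library was lower than the other 5. Elovl6 had 3.98 CPM (106 counts) in Treat 5 and 23.2 to 35.1 CPM in the other treated libraries (median of all 6, 28.2), against 19.2 to 38.1 CPM in DN. Its log2 fold change was -0.20 (95% interval -0.87 to 0.48, adjusted p = 0.814), and without Treat 5 it was 0.03. Me1 had 130.4 CPM in Treat 1 and 306.9 to 407.3 CPM in the other treated libraries, against 280.6 to 348.5 CPM in DN. Its log2 fold change was -0.07 (95% interval -0.56 to 0.42, adjusted p = 0.915), and without Treat 1 it was 0.09. In these cases 1 library set the sign of a difference that was not called.

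**Figure D4:**
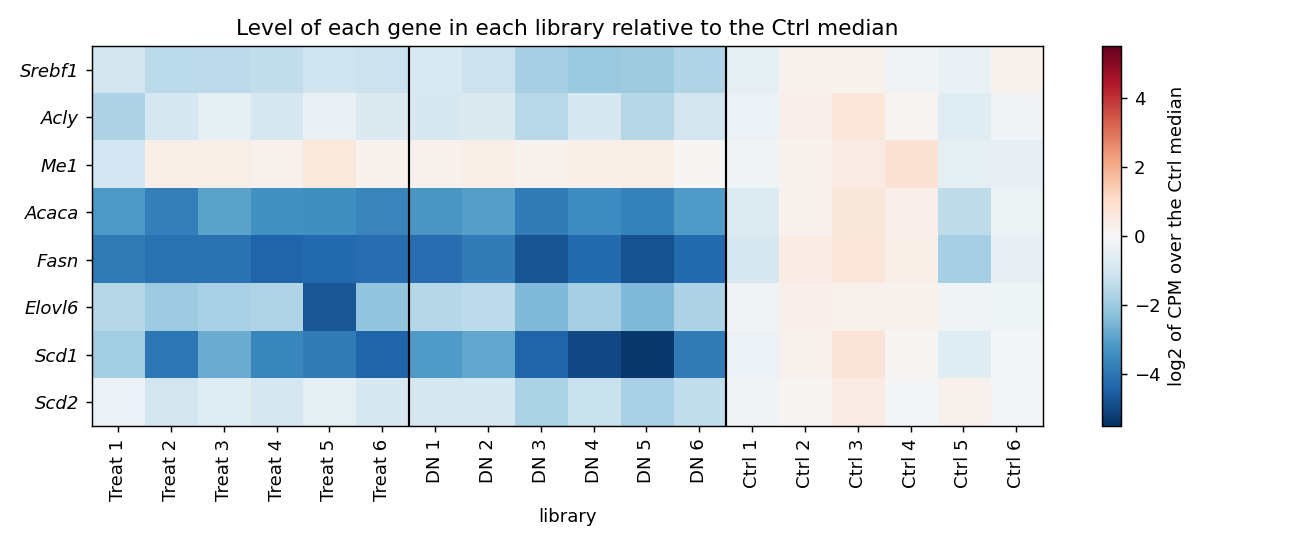
Level of each gene (rows) in each of the 18 libraries (columns, Treat, DN and Ctrl), as the log2 of its CPM over the Ctrl median, on a colour scale from -5.5 to 5.5. Fasn and Acaca are dark in all Treat and DN libraries. Scd1 is palest in Treat 1 among the Treat and DN libraries. Elovl6 is darkest in Treat 5 and Me1 is near 0 in most libraries.

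Treat kidneys were also set against Ctrl kidneys, the same controls as for DN. Again 7 of the 8 genes were called lower and 0 higher, whereas 21.9% of all genes were called lower and 23% higher. The groups did not overlap for 6 of the 8 genes, as they did not, with Treat lower, for 13.2% of all genes. Fasn was 17-fold lower in Treat than in Ctrl (log2 fold change -4.09, adjusted p = 6.95e-08, edgeR), Acaca 9.63-fold lower (-3.27, adjusted p = 1.16e-07) and Scd1 9.12-fold lower (-3.19, adjusted p = 4.52e-05). Elovl6 was 4.19-fold lower (-2.07, adjusted p = 8.93e-05) and Srebf1 2.29-fold lower (-1.20, adjusted p = 9.02e-05). The falls of Acly (1.85-fold, -0.89, adjusted p = 0.00306) and Scd2 (1.71-fold, -0.78, adjusted p = 0.000873) were the smallest. Acly overlapped with the controls, since Treat 3 and Treat 5 (166.7 and 183.3 CPM) lay above Ctrl 5 (156.4 CPM). Me1 was not called (log2 fold change 0.07, 95% interval -0.41 to 0.56, adjusted p = 0.825). With Ctrl 4 as the only control reference, where 5.78% of all genes were called lower, Srebf1 (-1.04, adjusted p = 0.0557), Acly (-0.97, adjusted p = 0.114) and Scd2 (-0.59, adjusted p = 0.198) lost their calls, and Fasn, Acaca, Scd1 and Elovl6 were called. Summed over the 8 genes, the level was 666.4 to 900.9 CPM in Treat, 558.6 to 862.0 CPM in DN and 1687 to 4372 CPM in Ctrl.

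The genes varied together within groups to different degrees. Among the DN kidneys, DN 2 was highest for 6 of the 8 genes and among the highest pair for all 8, and DN 5 was lowest for 5. Among the controls, Ctrl 3 was highest for 5 of the 8 genes, and Ctrl 1 was among the lowest pair for 7. Among the treated kidneys, Treat 1 was highest for 5 genes (Srebf1, Fasn, Scd1, Scd2 and Elovl6) but lowest for Acly and Me1. Treat 5 was highest for Acly and Me1 and lowest for Elovl6. These orders describe the libraries, and no test was made of them.

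Other genes whose level followed these were sought by the Pearson correlation of log2 CPM with the mean standardized level of the 8 genes over the 18 libraries, a measure that is mostly set by the difference between Ctrl and the other groups. The identifiers carry no names, so that the 2 most alike are given as identifiers only, picked with their values in view. ENSMUSG00000111942 had a correlation of 0.955, and 0.787 after group means were removed. It stood at 0.525 to 1.71 CPM in Treat, 0.711 to 1.74 CPM in DN and 4.71 to 25.4 CPM in Ctrl. ENSMUSG00000021069 had a correlation of 0.945, and 0.597 after group means were removed, with 18.9 to 26.4 CPM in Treat, 17.1 to 27.5 CPM in DN and 44.9 to 59.4 CPM in Ctrl. Of the 8 genes themselves, Fasn and Acaca each had a correlation of 0.978 with their mean, while Me1 had one of 0.05.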

How the data were processed

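The deposited values are raw read counts per gene, 1 column for each library, which the authors left unnormalized. The builds GRCm38 and mm10 are named per the submitters' processing notes. The sources used here do not give the aligner, counter, annotation release or strand setting. Columns were assigned by the library names in the labels, groups by the titles. The 8 members and all lists were chosen with earlier results of these data known.

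The counts were fitted with edgeR 4.0.16 (R 4.3.3): filterByExpr (19233 genes kept), TMM factors, all 18 libraries fitted together with 1 coefficient per group, and quasi-likelihood F-tests with Benjamini-Hochberg adjustment over all genes. Standard errors and 95% intervals come from the F statistics. The script was tested on simulated data. Alternatives were DESeq2 1.42.0, limma 3.58.1 (voom with quality weights), other scalings and filters, the 12 libraries compared only, the replicate number as a block, each library left out in turn, and Ctrl 4 and Ctrl 5 left out together. A covariate for the other 5 controls, which leaves Ctrl 4 as the only control reference, was added after the data had been seen. The rule for named genes took the 8 members, up to 4 called genes of each of 17 lists, and the 5 genes most alike that carry a symbol. None of the 222 list symbols could be matched to an identifier (0 of 55335 identifiers are in the rat gene table), so these lists, pathway neighbours and cell type markers among them, were not tested. No 2 libraries of a group agreed within sampling noise (45 pairs, chi-square per gene of 12.8 or more). If the reads are from rats, a mouse reference could have lost them unevenly between genes.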

Additional observations from a re-analysis of the deposited data

Results flagged for a closer look

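Of 24 sets of 6 libraries (8 genes in 3 groups), 1 held a library far from the others, by the gap to its nearest neighbour relative to the range of the set. Me1 had 130.4 CPM in Treat 1, and the next treated library had 306.9 CPM. The rule was applied to CPM and not to log values. It did not mark Elovl6 in Treat 5 (3.98 CPM, next treated library 23.2 CPM). Chance alone marks about 1 in 20 such sets.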

How the results depend on the processing

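The 7 falls of DN versus Ctrl were called in every alternative except that of Acly in the fit whose covariate leaves Ctrl 4 as the only control reference. The 7 falls of Treat versus Ctrl were called in every alternative except those of Srebf1, Acly and Scd2 in that same fit, which left 4 of the 8 members called. In that fit Me1 turned to -0.519 (DN versus Ctrl) and -0.589 (Treat versus Ctrl), neither called, and 986 and 1862 genes were called in all, against 6202 and 8629. Between Treat and DN, 0 members were called without any one library (0 to 0), and 1 (Scd2) with DESeq2 and with library totals. The number of all genes called there was 268, and it was 837 with DESeq2, 775 with library totals (84.4% of them higher, against 38.4%), 119 without a filter, 116 with the 12 libraries compared only, 117 with the replicate block, 737 with limma voom, and 97 to 446 when any 1 library was left out (97 without DN 4, 446 without Treat 1).

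Differences near 0 that were not called changed sign in some alternatives. Acaca for Treat versus DN was -0.0588 with voom and -0.0795 to 0.087 with any 1 library left out (below 0 without Treat 1, Treat 3, DN 3 or DN 5). Me1 for Treat versus DN was 0.0515 with library totals, 0.0214 with voom and -0.164 to 0.0883 with 1 library left out (above 0 without Treat 1). Me1 for Treat versus Ctrl was -0.0311 to 0.248 with 1 library left out (below 0 without Treat 5, Ctrl 5 or Ctrl 6). Elovl6 for Treat versus DN was -0.312 to 0.0286 with 1 library left out (above 0 without Treat 5). The cause was not tested. Same-numbered animals did not deviate together more than others did (correlations of -0.19 to 0.19, over 0.1 in 2 of 18 pairs). Between animals with different numbers the correlations were -0.3 to 0.29, over 0.1 in 13 of 90 pairs. The replicate block changed no call of a member. At 106 or more counts per member and library, the spread between animals and not depth limits the comparisons.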
